A study of Mus musculus with 12 samples.

Results

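Nucleolar ribosome biogenesis factors are the proteins that turn the ribosomal RNA precursor into the ribosomal subunits, and 60 of their genes were examined among the 24421 genes counted. The 60 genes are members by name and function, in a list drawn up with earlier results of these data known, and all of them were among the 14497 genes with enough reads to be tested. They were placed by function into 4 classes. A set of 8 belongs to small nucleolar ribonucleoprotein particles (snoRNPs), 24 act in small-subunit processing, 25 in large-subunit assembly, and 3 (Npm1, Ncl and Ddx21) serve several nucleolar steps and were kept apart.

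In the nucleolus, RNA polymerase I makes one long precursor RNA, which is modified, cut and folded around ribosomal proteins. Box C/D snoRNPs guide 2′-O-methylation and box H/ACA snoRNPs guide pseudouridylation of that RNA, the small-subunit processome folds and cleaves its first segment, and a separate series of factors assembles the large subunit. Many genes of this pathway are textbook targets of the MYC family, to which Mycn belongs, and mTOR signalling promotes the synthesis of ribosomes.

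The cells were mouse E14 embryonic stem cells that carried dCas_Alkbh5, described in the labels as a WT genotype with that construct; Alkbh5 is an RNA demethylase that erases m6A. The 3 groups of 4 libraries differed in the guide RNA plasmid, which was a non-targeting guide (NT), Mycn-gRNA2 or Mycn-gRNA3. All 3 groups, NT included, went through selection with 8 µg/mL blasticidin for 3 days and then 5 days in 200 nM INK128, an mTOR inhibitor, so that no library comes from cells without the inhibitor. RNA of 200000 cells per sample received ERCC spike-in RNAs before polyA selection, and the libraries held 17248564 to 33819855 endogenous reads. A single non-targeting guide served as control. The labels leave unsaid whether the replicates were grown apart, and the p-values then reflect only how much these samples vary, possibly for technical reasons.

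The cell type and the target were examined first. Summed over 10 embryonic stem cell markers, the level was 5446 to 5930 CPM (reads scaled to library size with TMM factors) in NT and 4296 to 5177 CPM with the Mycn guides, and 4 of the 10 were lower by edgeR relative to the transcriptome. The 10 fibroblast markers summed to 17.7 to 21.1 CPM in NT and 18.4 to 23.2 CPM with the guides, but Fbn1 carried most of that sum (14.2 to 17.5 CPM in NT, 11.0 to 16.6 CPM with the guides). Of the 6 fibroblast markers tested, 4 were higher and 1 was lower, with a median log2 difference of 1.40. These were low levels: Col1a1 was at 0.356 to 0.835 CPM in NT and 0.968 to 2.60 CPM with the guides, Col5a2 at 0.404 to 0.632 CPM and 1.37 to 2.48 CPM, and Postn and Lum were at 0 in every NT library. The 10 primitive endoderm markers summed to 204 to 275 CPM in NT against 321 to 382 CPM with the guides, with 7 higher and 1 lower. The part of these marker differences in the results was not tested. RNA of 4 Y chromosome genes summed to 0.0448 to 0.181 CPM in NT and 32.4 to 83.7 CPM with the guides, so the NT libraries stood apart from all 8 guide libraries in Y-linked RNA. A difference between the cultures and an effect of the guides cannot be told apart with these groups, and in bulk RNA fewer cells of a type and less RNA per cell cannot be told apart either. Mycn itself was at 136 to 146 CPM in the NT libraries, 205 to 262 CPM under Mycn-gRNA2 and 257 to 292 CPM under Mycn-gRNA3, with no overlap between NT and either guide, and relative to the transcriptome its log2 difference for both guides was 0.86 (edgeR, SE 0.0699, adjusted p = 3.39e-06).

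The 60 genes were well expressed in the NT libraries. Their median level per length was 50.1 RPKM (CPM divided by gene length in kilobases), against 6.80 RPKM over all genes tested, and the lowest of them still ranked above 63.9% of the genes tested. Npm1, a histone and ribosome chaperone, had the highest level at 1511 ± 110 RPKM (SD, n = 4), and Ncl, an RNA-binding protein of the nucleolus, followed at 430 ± 12.5 RPKM (SD, n = 4). Among the snoRNP proteins Nop58 was at 330 ± 23.8 RPKM (SD, n = 4), Nop56 at 221 ± 4.06 RPKM and Fbl at 206 ± 7.67 RPKM. At the lower end Nop16 was at 17.7 ± 0.469 RPKM (SD, n = 4). The levels within the pathway thus spread over a range of 122-fold, while the median coefficient of variation of a gene within its group was 5.89%.

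Relative to the transcriptome, most of the pathway did not pass the test, and a small set of genes changed. With the mean of both Mycn guides against NT, 9 of the 60 genes were higher and 2 were lower (edgeR quasi-likelihood test, adjusted p under 0.05, which is the threshold for "higher", "lower", "rose" and "fell" throughout). The share that rose was close to that over all genes tested, of which 14.9% were higher, and the share that fell, 3.33%, stood beside a background of 13%. The median log2 difference was 0.07 over the 60 genes and -0.003 over all genes tested. A positive difference was found for 43 of the 60 genes, against 7205 of the 14497 genes tested. The genes that rose were Nop16, Ddx18 and Pa2g4 of large-subunit assembly, Bysl of small-subunit processing, Nolc1, Nop10, Gar1 and Nop56 of the snoRNPs, and Npm1. Those that fell were Nop58 and Rpf1. For 40 of the 49 genes not called, the 95% interval of the difference lay within 1.25-fold in either direction; Rrp9, named here because its interval was the widest, is the least determined.

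**Figure D1:**
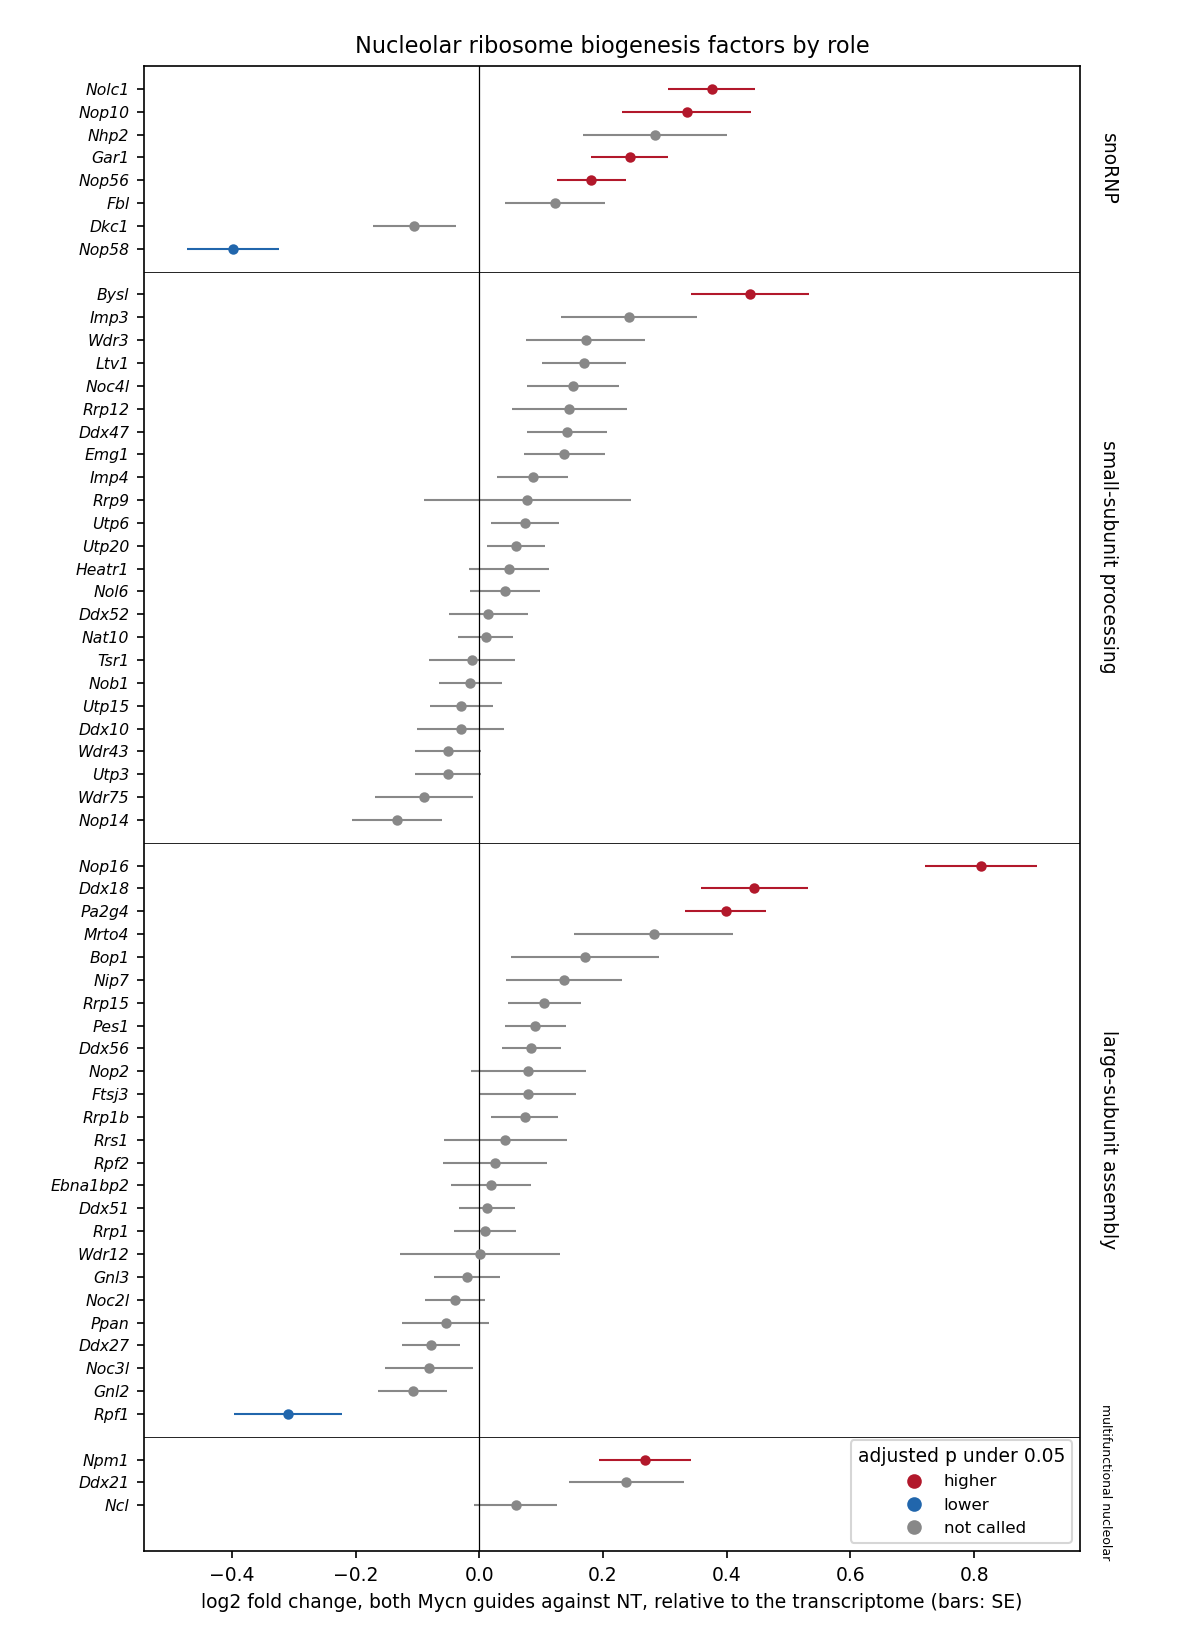
Log2 fold change of each of the 60 genes with both Mycn guides against NT, relative to the transcriptome (x axis, bars give the SE), grouped by role and ordered within each role. Nop16 lies farthest to the right at 0.81, 9 genes are called higher (red) and Nop58 and Rpf1 lower (blue), although per ERCC read Rpf1 is at 0.09 and Nop58 at -0.01.

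Rises and falls both occurred among the snoRNP and the large-subunit genes relative to the transcriptome. Of the 8 snoRNP genes 4 were higher and 1 was lower (median log2 difference 0.21), and of 25 large-subunit genes 3 were higher and 1 lower (median 0.04). Of 24 small-subunit genes 1 was higher and none lower (median 0.05), and of the 3 multifunctional genes 1 was higher (median 0.24). Over all genes tested 14.9% were higher and 13% lower. The share higher was 12% for large-subunit and 4.17% for small-subunit genes, not above that background, and 50% for the few snoRNP genes. Summed over its members, the snoRNP class was at 2175 ± 69.8 CPM in NT (SD, n = 4), 2228 ± 150 CPM under Mycn-gRNA2 and 2216 ± 157 CPM under Mycn-gRNA3, differences well within the spread between replicates. The large-subunit class summed to 3628 ± 42.4 CPM in NT (SD, n = 4), 3896 ± 247 CPM under Mycn-gRNA2 and 3866 ± 265 CPM under Mycn-gRNA3. In each guide group, replicate 1 lay below all NT libraries in this sum and the other 3 lay above them. All 60 genes together took 1.55% ± 0.0591 of endogenous reads in NT (SD, n = 4), 1.68% ± 0.0901 under Mycn-gRNA2 and 1.66% ± 0.107 under Mycn-gRNA3.

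Promoters are shown for the genes with the largest rise and the largest fall (Nop16 and Nop58), for Nop56, the partner of Nop58, and for 2 genes that hold a motif searched for (Nolc1, which rose, and Nop2, which was not called). The stretches run from 250 bases before to 50 bases after the RefSeq start of the gene in GRCm38.p6, and are written 5′ to 3′ on the gene's strand, with each match to CACGTG in capitals, and likewise each match to CCGGAAG, which on the other strand reads as CTTCCGG.
Nop16 (chr13:54590025-54590324, minus strand): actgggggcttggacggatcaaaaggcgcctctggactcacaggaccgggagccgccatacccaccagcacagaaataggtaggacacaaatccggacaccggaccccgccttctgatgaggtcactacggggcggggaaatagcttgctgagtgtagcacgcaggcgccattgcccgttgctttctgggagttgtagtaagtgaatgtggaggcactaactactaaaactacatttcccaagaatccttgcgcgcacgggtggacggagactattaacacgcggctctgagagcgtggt
Nop58 (chr1:59684756-59685055, plus strand): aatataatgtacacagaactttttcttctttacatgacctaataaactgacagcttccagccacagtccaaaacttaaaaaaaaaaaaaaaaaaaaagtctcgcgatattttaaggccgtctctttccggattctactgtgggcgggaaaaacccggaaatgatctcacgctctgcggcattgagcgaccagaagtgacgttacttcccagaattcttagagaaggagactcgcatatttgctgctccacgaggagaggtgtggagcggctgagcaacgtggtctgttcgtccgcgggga
Nop56 (chr2:130274162-130274461, plus strand): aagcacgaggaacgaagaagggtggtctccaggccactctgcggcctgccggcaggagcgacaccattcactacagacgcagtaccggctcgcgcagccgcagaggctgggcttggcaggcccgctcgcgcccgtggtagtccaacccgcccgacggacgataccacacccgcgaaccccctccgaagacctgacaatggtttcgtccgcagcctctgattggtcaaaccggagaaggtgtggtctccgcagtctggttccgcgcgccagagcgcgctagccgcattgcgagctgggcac
Nolc1 (chr19:46075597-46075896, plus strand): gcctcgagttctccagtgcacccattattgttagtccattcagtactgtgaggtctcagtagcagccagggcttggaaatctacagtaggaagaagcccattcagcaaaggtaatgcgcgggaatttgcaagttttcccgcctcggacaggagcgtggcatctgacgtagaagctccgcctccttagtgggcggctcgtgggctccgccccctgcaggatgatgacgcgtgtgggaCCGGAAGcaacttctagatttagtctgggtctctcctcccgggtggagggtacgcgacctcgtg
Nop2 (chr6:125131633-125131932, plus strand): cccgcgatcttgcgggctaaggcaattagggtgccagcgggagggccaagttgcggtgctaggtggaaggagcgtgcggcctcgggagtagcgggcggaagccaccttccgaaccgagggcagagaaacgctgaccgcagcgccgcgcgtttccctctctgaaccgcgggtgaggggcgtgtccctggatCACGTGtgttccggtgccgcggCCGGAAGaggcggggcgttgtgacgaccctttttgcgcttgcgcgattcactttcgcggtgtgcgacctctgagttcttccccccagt

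CACGTG, the E-box bound by MYC-MAX dimers, reads the same on both strands; CCGGAAG is the core of many ETS-family sites, and the palindromic NRF1 motif was searched as well. RefSeq promoters were matched for 51 of the 60 genes, and 8 of them (15.7%) held CACGTG. The share was 11.7% of the tested genes with a promoter and 8.09% of all genes with a promoter. None of those 8 genes was called in either direction with both guides relative to the transcriptome. Over all genes tested 14.9% were higher and 13% lower, and 8 genes are too few to be read against these shares. CCGGAAG was found in 20 genes (39.2%), against 18.7% of tested genes and 9.93% of all genes with a promoter. Of those 20, 2 rose (Gar1 and Nolc1), beside the same 14.9% over all genes tested. The Nop16, Nop58 and Nop56 windows printed above hold none of these letters, and the NRF1 motif was found in 0 of the 51 genes and in 2.21% of tested genes. A match of letters is a description of the window and not a binding site.

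Among the box C/D proteins, the 2 related scaffold subunits went in opposite directions relative to the transcriptome, though not per ERCC read. Nop58, at chromosome 1, positions 59685006 to 59711510 of mm10, was at 623, 631, 722 and 632 CPM in the NT libraries, 460, 577, 557 and 453 CPM under Mycn-gRNA2 and 443, 514, 465 and 492 CPM under Mycn-gRNA3. Every guide library lay below every NT library, and Nop58 was the single member of the 60 for which this held; 6.87% of all genes tested did so. Relative to the transcriptome it fell by 0.40 (log2; edgeR SE 0.0751 and adjusted p = 0.00164), and it differed by -0.01 per ERCC read (adjusted p = 0.937). Nop56, at chromosome 2, positions 130274412 to 130279313, was at 412, 422, 428 and 412 CPM in NT, 442, 490, 509 and 470 CPM under Mycn-gRNA2 and 426, 474, 500 and 486 CPM under Mycn-gRNA3. All but 1 of the guide libraries, Mycn-gRNA3 replicate 1, lay above every NT library. The rise of Nop56 was small (log2 difference 0.18, SE 0.0557, edgeR adjusted p = 0.0264), and it lost the call when any of 7 single libraries was left out (adjusted p 0.0529 to 0.076).

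Fbl, the methyltransferase of the box C/D particle, was at 226 to 244 CPM in NT, 198 to 269 CPM under Mycn-gRNA2 and 241 to 299 CPM under Mycn-gRNA3, and its groups overlapped (log2 difference 0.12, edgeR adjusted p = 0.28). The ratio of Nop56 to Nop58 per length, looked at after the values of both were seen and given with no test, was 0.671 ± 0.0367 in NT (SD, n = 4), 0.981 ± 0.083 under Mycn-gRNA2 and 1.03 ± 0.0667 under Mycn-gRNA3. The lowest ratio in a guide library, 0.885, was above the highest in an NT library, 0.698. Nop56 to Fbl, by contrast, was 1.07 ± 0.0344 in NT (SD, n = 4), 1.20 ± 0.12 under Mycn-gRNA2 and 1.05 ± 0.0254 under Mycn-gRNA3.

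**Figure D2:**
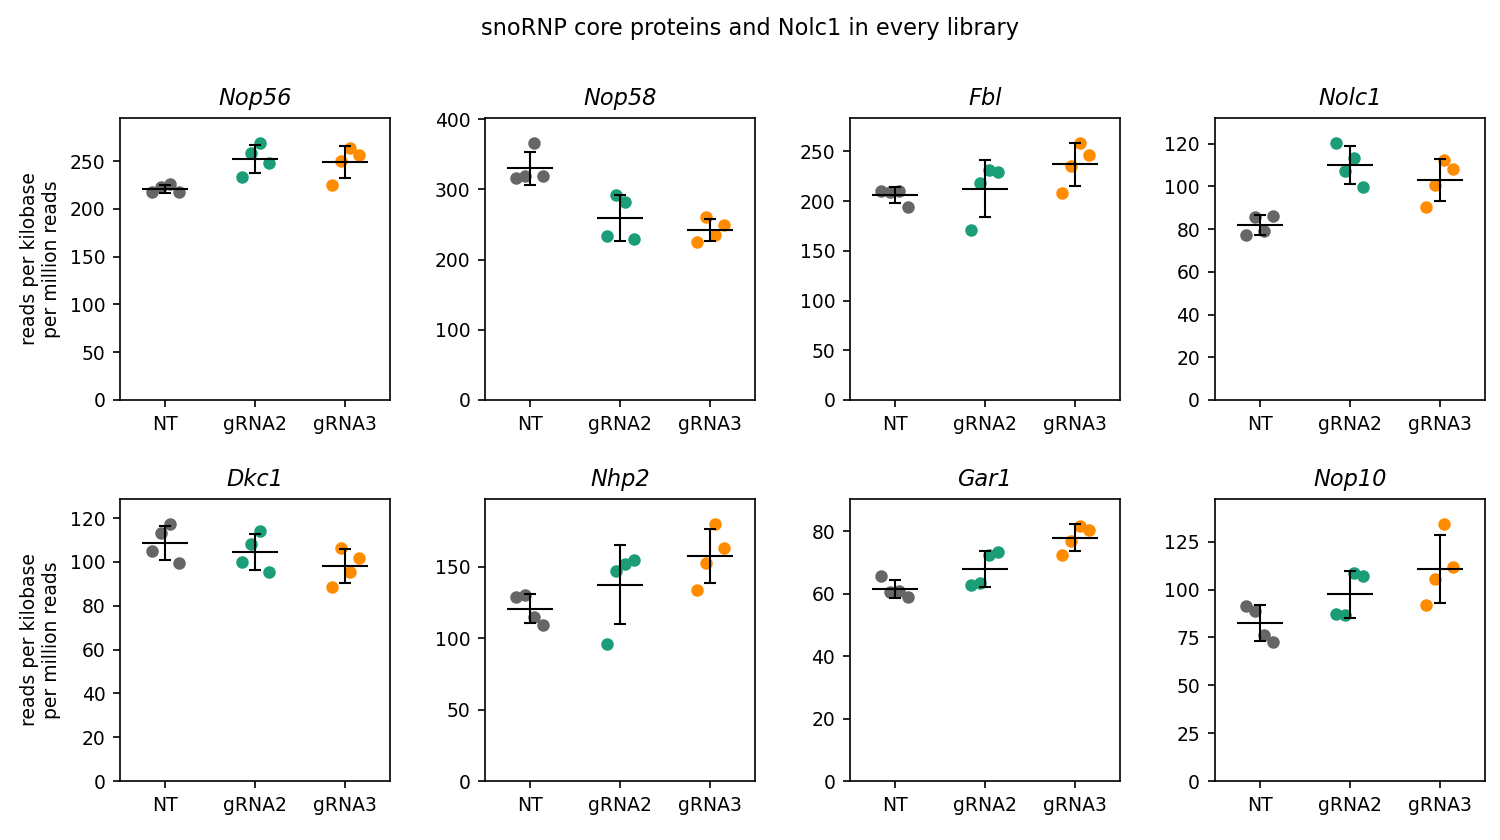
Level of each snoRNP core protein gene and of Nolc1 in RPKM (y axis, from 0) in the NT, Mycn-gRNA2 and Mycn-gRNA3 libraries; points are libraries, the line and bars the mean and SD of 4. Nop58 falls from 330 ± 23.8 in NT to lower values in all guide libraries relative to the transcriptome, although not per ERCC read (log2 difference -0.01), while Nolc1 lies above NT in all of them.

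Of the box H/ACA proteins, 2 of 4 rose with both guides, and none of the 4 passed with Mycn-gRNA2 alone. Over all genes tested 14.9% were higher with both guides and 10.1% with Mycn-gRNA2, and 4 genes are too few to be read against these shares. Gar1, at chromosome 3, positions 129824912 to 129831396, was at 83.5, 76.8, 77.1 and 74.9 CPM in NT, 79.7, 80.5, 92.0 and 93.3 CPM under Mycn-gRNA2 and 91.8, 97.7, 104 and 102 CPM under Mycn-gRNA3. All Mycn-gRNA3 libraries were above NT, while those of Mycn-gRNA2 overlapped it. Gar1 rose by 0.24 with both guides (SE 0.0621, edgeR adjusted p = 0.0101), and for Mycn-gRNA3 alone the rise was 0.34 (adjusted p = 0.00349). Nop10, a small subunit bound directly to the enzyme, was at 53.6 to 67.6 CPM in NT, 64.0 to 80.1 CPM under Mycn-gRNA2 and 67.8 to 98.9 CPM under Mycn-gRNA3, a rise of 0.34 (SE 0.105, edgeR adjusted p = 0.0286). Leaving out replicate 3 or 4 of NT or of Mycn-gRNA2 removed that call (adjusted p 0.0508 to 0.105).

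Dkc1, the pseudouridine synthase that the other 3 proteins surround, was at 279 to 328 CPM in NT, 268 to 319 CPM under Mycn-gRNA2 and 248 to 298 CPM under Mycn-gRNA3, with overlapping groups (log2 difference -0.10, edgeR adjusted p = 0.269). Nhp2, the RNA-binding core subunit, was at 110 to 131 CPM in NT, 96.7 to 155 CPM under Mycn-gRNA2 and 135 to 180 CPM under Mycn-gRNA3. It passed with Mycn-gRNA3 (0.38, edgeR adjusted p = 0.0471), a call that ended on leaving out any of 9 libraries (adjusted p 0.0529 to 0.146), and did not pass with both guides (0.28, adjusted p = 0.0854). Per length and as a description, Gar1 over Dkc1 was 0.567 ± 0.0495 in NT (SD, n = 4), 0.654 ± 0.0797 under Mycn-gRNA2 and 0.796 ± 0.0557 under Mycn-gRNA3.

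Nolc1, a phosphoprotein that accompanies both kinds of snoRNP, at chromosome 19, positions 46075847 to 46085543, was at 283, 315, 290 and 316 CPM in NT, 441, 393, 415 and 365 CPM under Mycn-gRNA2 and 331, 369, 412 and 397 CPM under Mycn-gRNA3. All 8 guide libraries were above all NT libraries. The rise was 0.38 with both guides (SE 0.0698, edgeR adjusted p = 0.00149), 0.42 under Mycn-gRNA2 and 0.33 under Mycn-gRNA3, and it kept the call on leaving out each of the 12 libraries in turn.

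In small-subunit processing, Bysl was the member that passed with both guides. Bysl (bystin) is needed for maturation of the small-subunit precursor, and its gene lies at chromosome 17, positions 47599331 to 47611492. It was at 69.8, 69.9, 60.2 and 66.3 CPM in NT, 67.4, 84.6, 92.8 and 99.8 CPM under Mycn-gRNA2 and 84.2, 91.3, 104 and 97.2 CPM under Mycn-gRNA3. Mycn-gRNA2 replicate 1 lay within the NT range, and the other 7 guide libraries lay above it. The rise was 0.44 (SE 0.0948, edgeR adjusted p = 0.00394); the call with Mycn-gRNA2 alone, 0.37, ended without any of 5 libraries (adjusted p 0.0507 to 0.0932). Exons of Bysl share 1074 bases (27.9% of its length) with Ccnd3 on the opposite strand, whose own level was 250 CPM in NT and 192 CPM with the guides, and since the sources do not give the strand setting of the counting, reads of the 2 genes there may not be separated. The same limit holds for other members, named here for their overlap. Tsr1 shares 68.5% of its length with Srr, Emg1 27.7% with Lpcat3 and Noc2l 21.5% with Samd11, on opposite strands. Ebna1bp2 shares 20.4% with D4Ertd617e on the same strand. These partners, unlike Ccnd3, had lower levels than the members beside them. In NT, Srr was at 4.04 CPM beside 111 CPM for Tsr1, and Lpcat3 at 35.8 CPM beside 75.8 CPM for Emg1. Samd11 was at 1.96 CPM beside 181 CPM for Noc2l, and D4Ertd617e at 0.152 CPM beside 126 CPM for Ebna1bp2.

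With single guides, 2 further small-subunit genes passed. With Bysl included, 8.33% of the 24 genes of the class were higher with each guide. Over all genes tested the shares were 10.1% (Mycn-gRNA2) and 14.8% (Mycn-gRNA3), so the class was not above the background. Ltv1, an export factor of the small-subunit precursor, was higher with Mycn-gRNA2 (0.26, edgeR adjusted p = 0.0327), where its 73.9 to 89.3 CPM stood against 63.2 to 68.5 CPM in NT, and was at 61.7 to 75.3 CPM under Mycn-gRNA3. Imp3, a component of the U3 snoRNP, was higher with Mycn-gRNA3 (0.39, adjusted p = 0.0348), at 35.1 to 38.5 CPM against 23.3 to 30.7 CPM in NT, and at 22.2 to 36.1 CPM under Mycn-gRNA2. Each of these calls ended on leaving out single libraries, with adjusted p from 0.0594 to 0.0912 without any of 5 libraries for Ltv1 and from 0.0527 to 0.109 without any of 7 for Imp3. Wdr43 and Wdr75, which link transcription of the precursor to its processing, were at -0.05 and -0.09 with both guides, and Nop14 of the processome at -0.13 (edgeR adjusted p = 0.197). The 24 genes of the class ran from -0.13 to 0.44.

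In large-subunit assembly, Nop16 showed the largest rise of the 60 genes. Nop16, a nucleolar protein of the early large-subunit precursor as known from yeast, lies at chromosome 13, positions 54584191 to 54590074. It was at 31.1, 30.5, 29.7 and 31.6 CPM in NT, 47.5, 55.6, 57.8 and 53.5 CPM under Mycn-gRNA2 and 42.7, 54.2, 62.1 and 57.8 CPM under Mycn-gRNA3. The lowest guide library was well above the highest NT library. The log2 difference was 0.81 with both guides (SE 0.0905, edgeR adjusted p = 3.37e-05), 0.80 under Mycn-gRNA2 and 0.82 under Mycn-gRNA3, beside the 0.86 of Mycn itself.

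Ddx18, an RNA helicase, was at 167, 176, 181 and 165 CPM in NT, 193, 276, 254 and 229 CPM under Mycn-gRNA2 and 203, 239, 245 and 240 CPM under Mycn-gRNA3, and rose by 0.44 (SE 0.0857, edgeR adjusted p = 0.00188). Pa2g4, also known as Ebp1, a protein that binds ribosomes and their large-subunit precursor, was at 362, 374, 363 and 374 CPM in NT, 520, 512, 526 and 471 CPM under Mycn-gRNA2 and 391, 475, 504 and 488 CPM under Mycn-gRNA3, a rise of 0.40 (SE 0.0656, edgeR adjusted p = 0.000655). For both genes, as for Nop16 and Nolc1, all guide libraries were above all NT libraries; these were 4 of the 60 genes, against 8.55% of all genes tested. Rpf1, a factor of the large-subunit precursor, moved the other way, at 84.1, 81.9, 77.6 and 95.0 CPM in NT, 91.4, 73.4, 72.8 and 65.1 CPM under Mycn-gRNA2 and 54.7, 60.7, 66.4 and 64.9 CPM under Mycn-gRNA3. Mycn-gRNA2 replicate 1 lay among the NT libraries and the other 7 guide libraries below them. The fall of 0.31 relative to the transcriptome (SE 0.0868, edgeR adjusted p = 0.0169) was not called without NT replicate 4 (adjusted p = 0.0772), and per ERCC read Rpf1 was at 0.09 (adjusted p = 0.566). Gnl3 (nucleostemin), a nucleolar GTPase abundant in stem cells, was at -0.02 with both guides (adjusted p = 0.817).

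Of the multifunctional proteins, Npm1 was at 2542, 2798, 2358 and 2683 CPM in NT, 3604, 3216, 3251 and 2877 CPM under Mycn-gRNA2 and 2642, 3043, 3152 and 3216 CPM under Mycn-gRNA3. All Mycn-gRNA2 libraries were above NT, and replicate 1 of Mycn-gRNA3 lay within the NT range. Npm1 rose by 0.27 with both guides (SE 0.0743, edgeR adjusted p = 0.016), a call that ended without NT replicate 1 or 3 (adjusted p 0.0501 to 0.0704); Npm1 has processed copies elsewhere in the genome, so its counts are uncertain to that extent. Ncl was at 3452 to 3688 CPM in NT and 3122 to 4169 CPM with the guides, with overlapping groups (0.06, edgeR adjusted p = 0.544). Ddx21, a helicase that also acts on RNA polymerase I and II transcription, was at 0.24 (adjusted p = 0.0704).

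**Figure D3:**
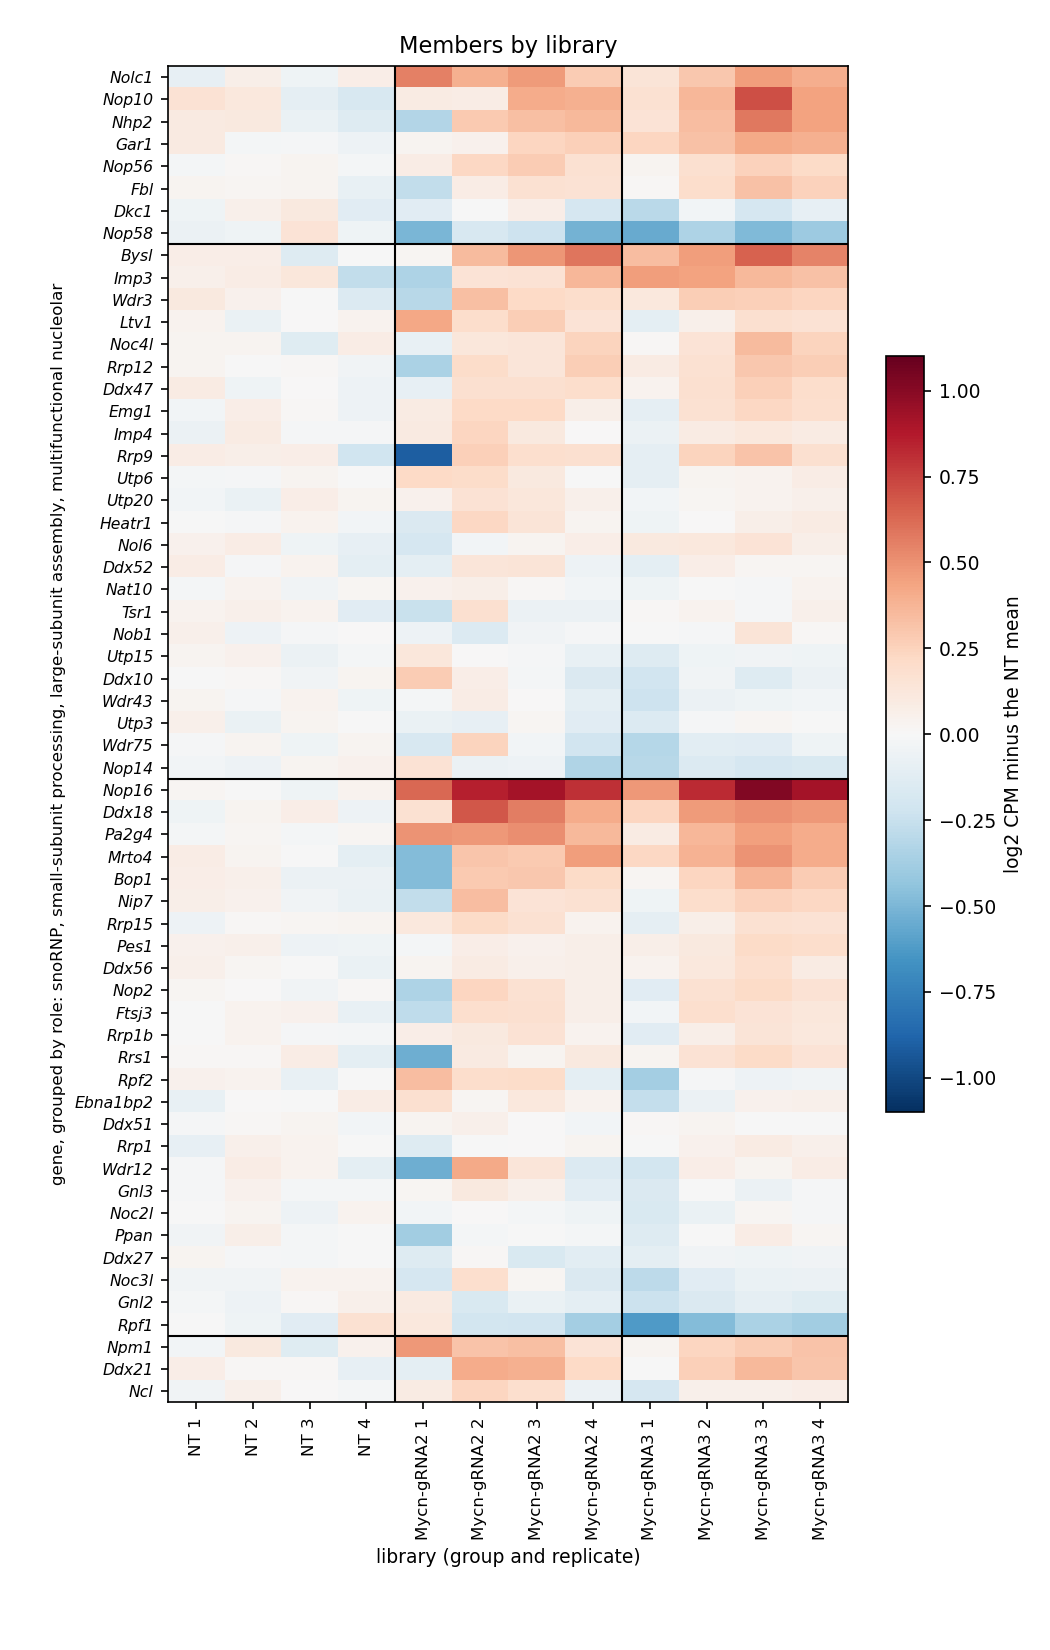
Level of each of the 60 genes in each of the 12 libraries as log2 CPM minus the mean over the NT libraries (colour), with genes grouped by role. The Nop16 row is red in all 8 guide libraries and the Nop58 row blue relative to the transcriptome, although not per ERCC read (log2 difference -0.01), and Mycn-gRNA2 replicate 1 differs from the other Mycn-gRNA2 libraries in several genes.

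The guide groups were then taken one at a time; both share the NT libraries. With Mycn-gRNA2, 7 genes were higher and 1 was lower, against 10.1% and 7.06% of all genes tested, and all Mycn-gRNA2 libraries lay above all NT libraries for 8 genes and below them for 1, against 10.1% and 9.35%. The Mycn-gRNA2 count of 8 ran from 4 to 19 when single libraries were left out, and moved by over 1.5 times without NT replicate 1 or 3 or Mycn-gRNA2 replicate 1 or 3, while the share called over all genes ran from 11.1% to 28.3%. With Mycn-gRNA3, 9 genes were higher and 2 lower, against 14.8% and 12.2% of all genes tested, and the libraries lay above NT for 13 genes and below for 7, against 20.8% and 18.5%. Between the guides (Mycn-gRNA3 against Mycn-gRNA2) edgeR called 0 of the 60 genes, as DESeq2 did, and 0 of all genes tested. At an unadjusted p under 0.05 there were 5 of the 60, against 1273 of the 14497 genes tested. Among the 5 were Gar1 (0.20), Rpf1 (-0.30), Ltv1 (-0.19) and Imp3 (0.29), with Rpf2 (-0.28) named to complete the count, all at edgeR adjusted p = 0.549. The genes that passed with 1 guide and not the other are therefore not shown to differ between the guides, and the intervals of 43 of the 60 differences lay within 1.25-fold.

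Mycn-gRNA2 replicate 1 and Mycn-gRNA3 replicate 1 had lower values of the pathway than the other libraries of their groups. The median of the 60 genes against the NT mean was -0.03 and -0.04 on the log2 scale in these libraries, 0.05 to 0.17 in the other 3 of Mycn-gRNA2 and 0.07 to 0.15 in the other 3 of Mycn-gRNA3. Without Mycn-gRNA2 replicate 1, 24 of the 60 genes were called with both guides, 20 higher and 4 lower, against 42.3% of all genes tested. For Mycn-gRNA3 against NT, whose fit shares the spread of all libraries, leaving out Mycn-gRNA2 replicate 1 also gave 24, against 41.3% of all genes. With replicates 1 and 2 alone the count for both guides was 0, and with replicates 3 and 4 alone it was 28, against 1.23% and 43.9% of all genes.

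Per ERCC read, nearly the whole pathway was higher with the guides, as was the transcriptome. Endogenous reads per ERCC read were 61.3, 72.1, 65.1 and 63.4 in NT, 85.0, 65.6, 81.6 and 95.6 under Mycn-gRNA2 and 93.2, 90.1, 94.5 and 83.0 under Mycn-gRNA3. Mycn-gRNA2 replicate 2 lay within the NT range and the other 7 guide libraries above it. The log2 difference was 0.39 with both guides (exact two-sided permutation test, p = 0.00404, adjusted over 4 comparisons 0.0162), 0.31 under Mycn-gRNA2 (exact permutation p = 0.0571) and 0.46 under Mycn-gRNA3 (exact permutation p = 0.0286, the smallest that 4 against 4 can give, adjusted 0.0571). The permutations took every library as independent, although equal replicate numbers deviated together between the guide groups. The p-value for both guides may therefore be too small. On this scale 56 of the 60 genes were higher with both guides and 0 lower, against 56.4% and 0.931% of all genes tested. The shares over all genes were not matched for expression level, and the median SE was 0.128 over the 60 genes against 0.154 over all genes tested. The median log2 difference over the 60 genes was 0.47, and over all genes tested it was 0.39. Because the spike-in was mixed into RNA after extraction, unequal cell numbers or unequal yields would also shift this scale; their part in the result was not tested.

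The 4 genes that did not pass per ERCC read with both guides were Nop58 (-0.01), Rpf1 (0.09), Nop14 (0.26, edgeR adjusted p = 0.0693) and Dkc1 (0.28, adjusted p = 0.0501). Nop58 was at 37.2, 46.5, 47.4 and 39.6 reads per 1000 ERCC reads in NT, 38.2, 36.9, 45.7 and 43.4 under Mycn-gRNA2 and 42.3, 47.8, 44.2 and 40.4 under Mycn-gRNA3, with the groups overlapping fully. Nop16 was at 1.85, 2.25, 1.95 and 1.98 reads per 1000 ERCC reads in NT, 3.94, 3.55, 4.75 and 5.13 under Mycn-gRNA2 and 4.07, 5.05, 5.90 and 4.74 under Mycn-gRNA3, a log2 rise of 1.21 (SE 0.143, edgeR adjusted p = 2.56e-08). Bysl rose by 0.84, Ddx18 by 0.83, Pa2g4 by 0.79, Nolc1 by 0.77, Nop10 by 0.74, Npm1 by 0.66, Gar1 by 0.65 and Nop56 by 0.57 per ERCC read, and 13 of the 60 genes had all guide libraries above all NT libraries and 0 had them below, against 11.5% and 0.235% of all genes tested. Summed over the 60 genes, there were 1018 ± 113 reads per 1000 ERCC reads in NT (SD, n = 4), 1373 ± 167 under Mycn-gRNA2 and 1496 ± 114 under Mycn-gRNA3.

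With Mycn-gRNA2 alone 29 of the 60 genes were higher and 0 lower per ERCC read, against 26.3% and 0.517% of all genes tested, a count that was 15 with the replicate number as a block and ran from 9 to 51 when single libraries were left out (over 1.5 times away without NT replicate 1, 3 or 4 or Mycn-gRNA2 replicate 2, 3 or 4). The share over all genes was 22.1% with the block and 12.7% to 54.4% with single libraries left out. With Mycn-gRNA3 alone 56 were higher and 0 lower, against 60.7% and 0.504% of all genes tested, and all but Nop58, Nop14, Rpf1 and Gnl2 passed. Between the guides 0 of the 60 genes were called by edgeR, against 0.0069% of all genes tested. At an unadjusted p under 0.05 there were 7 of the 60, against 1601 of the 14497 genes tested. Without Mycn-gRNA2 replicate 4 the count of calls was 10, against 13.8% of all genes in that fit.

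**Figure D4:**
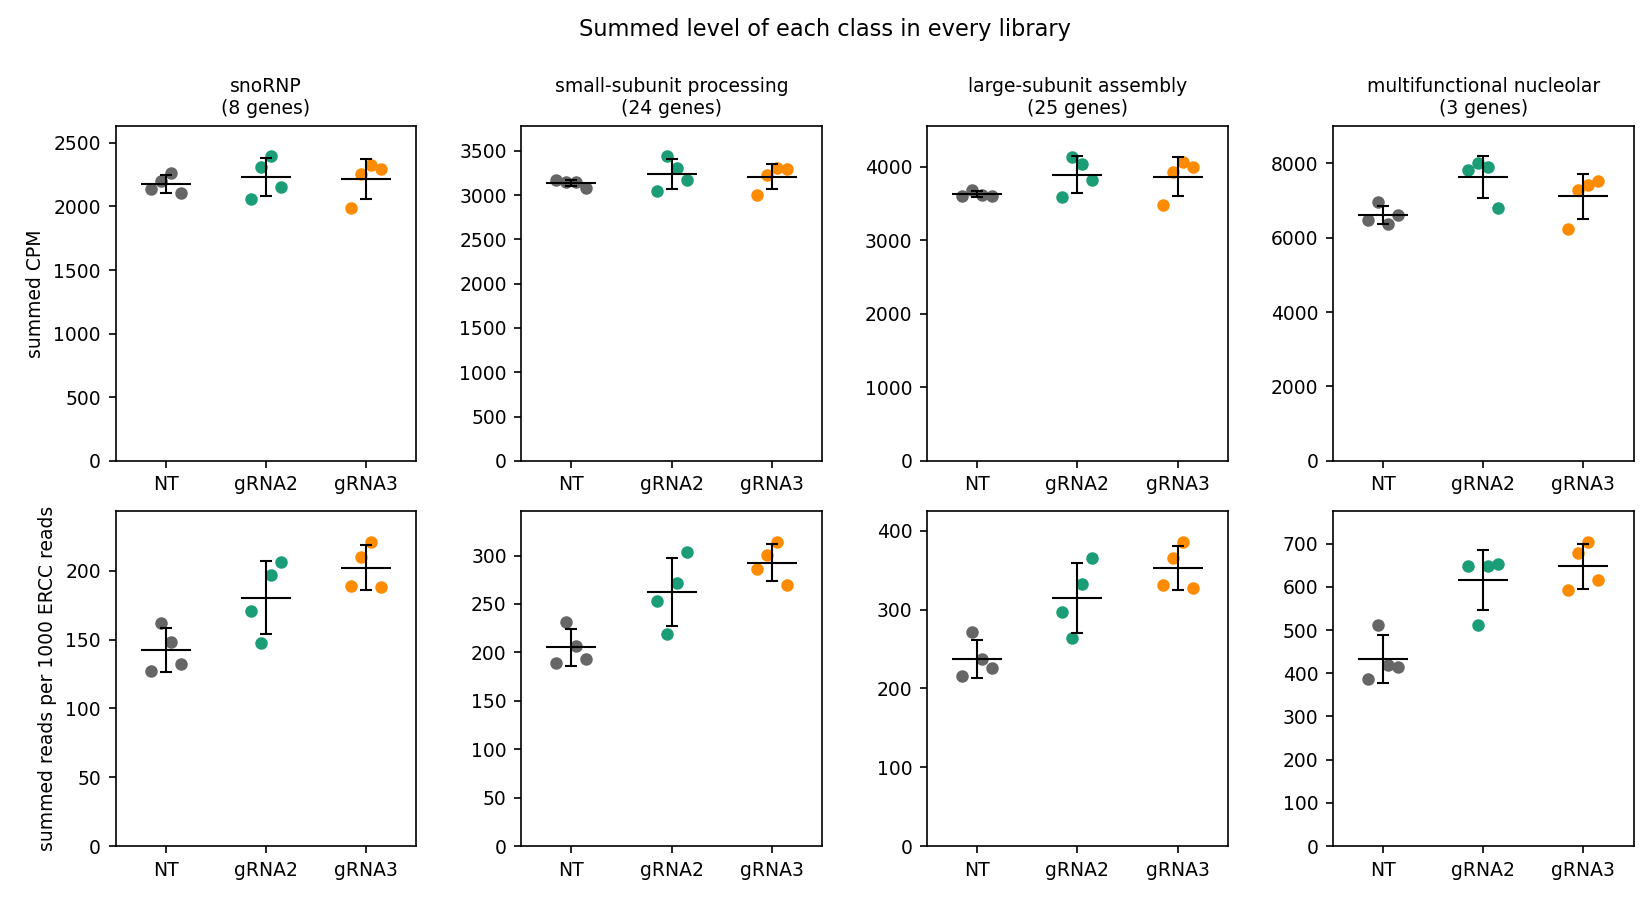
Summed level of each class in every library, as CPM (top) and as reads per 1000 ERCC reads (bottom), with y axes from 0; points are libraries, the line and bars the mean and SD of 4. In CPM the snoRNP sums overlap fully between groups (2175 ± 69.8 in NT, 2228 ± 150 under Mycn-gRNA2), while per ERCC read 7 of 8 guide libraries lie above every NT library in each class.

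Other genes of the pathway, taken from lists of textbook members, were counted in the same comparison, relative to the transcriptome, where 14.9% of all genes tested were higher and 13% lower. Of 39 further small-subunit factors 3 (7.69%) were higher (Dnttip2 0.43, Abt1 0.31 and Rrp7a 0.25) and 1 was lower (Ddx49, -0.18), with a median of 0.04. Of 42 further large-subunit factors 6 (14.3%) were higher and 1 was lower, with a median of 0.03; the largest rise was that of Wdr55 at 0.36 (SE 0.0649, edgeR adjusted p = 0.00124), and the gene that fell, Znhit6 at -0.21, is known for the assembly of box C/D snoRNPs. None of the 9 genes listed as further snoRNP factors passed by edgeR in either direction. Nor did any of them have an unadjusted p under 0.05, against 5676 of the 14497 genes tested. Znhit6 was listed with the large-subunit factors and is not among these 9. By its known role it would instead count as a further snoRNP factor that fell. Of 17 genes of the exosome and of RNA trimming 2 (11.8%) were higher, the exosome subunits Exosc4 (0.51) and Exosc9 (0.31). All of these genes outside the 60 are named because they passed the test.

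Small nucleolar RNAs are annotated within 8 of the 60 genes (13.3%), on the same strand, in GENCODE M21, against 1.74% of the 13174 protein-coding genes tested. The hosts are Nop56, Nop58, Dkc1, Ncl, Wdr43, Ppan, Gnl3 and Tsr1, so several proteins of the pathway are encoded together with the guide RNAs it uses. Of the 8 hosts 1 rose (Nop56) and 1 fell (Nop58) relative to the transcriptome, with a median log2 difference of -0.03, and 0.08 over the other 52 genes. These counts are near the shares over all genes tested, of which 14.9% were higher and 13% lower. PolyA libraries do not measure the small RNAs themselves.

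By position, chromosomes 1 and 8 were set apart because their medians were lower with the guides in an earlier analysis of these data. Their lower medians here are therefore no new finding. The medians were -0.13 over 540 genes and -0.12 over 559 genes at a mean log2 CPM above 3. Over 8280 genes on the others, pooled without the Y chromosome, the median was 0.005, so single chromosomes were not compared. The 8 members on chromosome 1, Nop58 and Ddx18 among them, had a median of 0.05 and ran from -0.40 to 0.44, and the 2 on chromosome 8 had a median of 0.06. The median over the 50 members elsewhere was 0.08. The part of a chromosome-wide shift in the fall of Nop58 was not tested.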

How the data were processed

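Gene reads were counted in 12 polyA RNA-seq libraries, and the deposited table holds raw counts per gene with 92 ERCC RNAs. Per the submitters' processing notes, Trim Galore 0.4.0, featureCounts of Subread 1.5.0, build mm10 and edgeR 3.32.1 were used. Not given in the sources are the aligner, the gene annotation's release and how strand was handled. The other deposited table lists log2 values of 12042 genes, each equal to log2(count + 0.5) minus a constant per library, and was used only in an alternative test.

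The test on counts used edgeR 4.0.16 in R 4.3.3 (robust quasi-likelihood F test, all 12 libraries, 1 term per group, filterByExpr), with Benjamini-Hochberg adjustment over 14497 genes and a threshold of 0.05. TMM factors gave changes relative to the transcriptome; ERCC totals as library sizes gave changes per ERCC read. CPM and RPKM are TMM-scaled and were computed here. Replicates differed beyond sampling noise (chi-square per degree of freedom 8.63 to 72.2), so none was taken for a copy. The procedure was tested on simulated data. Alternatives used limma 3.58.1, DESeq2 1.42.0, other filters and scalings, a replicate block and libraries left out.

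Equal replicate numbers deviated together between the guide groups (correlations 0.211 to 0.498, each above 0.1, although replicate 4 of Mycn-gRNA2 correlated better, at 0.353, with another number), and were read as paired, but not in every pair with NT (0.033 to 0.370). ERCC RNAs took 1.04% to 1.61% of reads; counting intervals would cover counting error only. The 60 genes, the classes and the lists were chosen with earlier results of these data known. Named genes are Mycn, all members called relative to the transcriptome, the snoRNP core proteins, and per class the largest and smallest change and the 2 highest levels; others are said to be named after their values were seen. RefSeq promoters (GRCm38.p6) and GENCODE M21 gave sequences and snoRNA positions.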

Additional observations from a re-analysis of the deposited data

Results flagged for a closer look

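In 10 of 99 groups of 4 libraries examined (33 sets of values in 3 groups), 1 library stood apart from the other 3 by Dixon's criterion, where chance gives about 1 in 20. Among NT libraries, Nop58 was at 722 CPM in replicate 3 and at 623 to 632 CPM in the others, Fbl at 226 CPM in replicate 4 with the nearest at 243 CPM, and Gnl3 at 307 CPM in replicate 2 with the nearest at 294 CPM. The large-subunit sum of NT replicate 2 was 3691 CPM (nearest 3612 CPM), and the sum over all 60 genes was 15989 CPM there (nearest 15400 CPM).

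With the guides, Nhp2 was at 96.7 CPM in Mycn-gRNA2 replicate 1 (nearest 148 CPM), and Ncl and Ddx18 were at 3122 and 203 CPM in Mycn-gRNA3 replicate 1 (nearest 3675 and 239 CPM). The summed multifunctional genes were at 6810 CPM in Mycn-gRNA2 replicate 4 (nearest 7818 CPM) and at 511 reads per 1000 ERCC reads in Mycn-gRNA2 replicate 2 (nearest 648).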

How the results depend on the processing

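The counts of members called relative to the transcriptome kept within 1.5 times of 11 (both guides), 8 (Mycn-gRNA2) and 11 (Mycn-gRNA3) with DESeq2, its size factors, no filter on low counts and the replicate block, and no result reversed. With replicates 1 and 2 alone the 3 counts were 0, 0 and 0 (1.23%, 0.228% and 1.52% of all genes), and with replicates 3 and 4 alone 28, 24 and 27 (43.9%, 33.3% and 40.9%); fitting only the groups compared gave 24 for Mycn-gRNA3 (42.1%). Leaving out 1 library at a time gave 8 to 24 for both guides (20% to 42.3% of all genes), 4 to 19 for Mycn-gRNA2 (11.1% to 28.3%), 8 to 24 for Mycn-gRNA3 (18.6% to 41.3%) and 0 to 0 between the guides; the 24 came without Mycn-gRNA2 replicate 1, and the Mycn-gRNA2 count moved by over 1.5 times without NT replicate 1 or 3 or Mycn-gRNA2 replicate 1 or 3. Per ERCC read the ranges were 40 to 57, 9 to 51, 48 to 58 and 0 to 10 (38.4% to 70.5%, 12.7% to 54.4%, 46.9% to 68.4% and 0% to 13.8% of all genes). There, replicates 1 and 2 alone gave 4 (both guides), 1 (Mycn-gRNA2), 8 (Mycn-gRNA3) and 1 (between the guides), against 7.69%, 2.9%, 19.3% and 3.36% of all genes. For Mycn-gRNA2 per ERCC read, in place of 29, fitting only its groups gave 13 (21.2% of all genes), replicates 3 and 4 alone 57 (56.3%), and limma on the deposited log2 values 16 (20.2%). The cause of these moves was not tested, beyond the fewer samples that some settings use. Over 51 gene results and all settings that leave out no single library, 277 of 327 values kept their call and 50 lost it, most with replicates 1 and 2 alone.

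With the replicate number as a block, counts relative to the transcriptome were 11 (both guides), 9 (Mycn-gRNA2), 12 (Mycn-gRNA3) and 0 (between the guides), against 30.7%, 19.4%, 30.4% and 0% of all genes. Per ERCC read they were 51, 15, 51 and 0, against 51.9%, 22.1%, 57.1% and 0.0138%, and Wdr75 lost its call (adjusted p = 0.0775).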
